A study of Mus musculus with 8 samples.

Results

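The transcripts of 9 genes of transforming growth factor beta (TGF-beta) and activin signalling were followed in 8 whole tumors: the ligand genes Tgfb1, Tgfb2 and Tgfb3, the receptor genes Tgfbr1, Tgfbr2 and Tgfbr3, the activin subunit genes Inhba and Inhbb, and the inhibitory Smad gene Smad7. They are a list of gene names, and all 9 were found once each among the 25766 entries of the deposited table. All 9 passed the filter on low counts and were among the 14907 genes tested. The tumors grew from MC38-OVA cells, which derive from a colon adenocarcinoma of the mouse and express ovalbumin as a model antigen. In 4 tumors the injected cells carried shXBP1, a hairpin against Xbp1, and in the other 4 they carried shNT, the control hairpin. Both kinds of cell were injected under the skin of female mice labelled C57BL/6J. One protocol field spells the strain C57BL/5J, and no source used here gives the age of the mice or the day of collection. Host cells in the tumors came from the recipient mice. Whether the hairpin lines were clones, and whether each numbered tumor came from its own mouse, is not given, so p-values measure only the spread between these samples, which may be technical.

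TGF-beta is secreted as a latent dimer bound to its own propeptide, and it must be released before it can bind. The released ligand is held by the type II receptor TGFBR2, which recruits and phosphorylates the type I receptor TGFBR1. TGFBR3, or betaglycan, is an accessory receptor that presents ligand, TGFB2 above all, to this pair. Activins are dimers of the beta subunits that Inhba and Inhbb encode, and they use type II and type I receptors of their own. Both kinds of ligand act through SMAD2 and SMAD3 with SMAD4, and SMAD7, which the pathway induces, blocks the type I receptors. In tumors TGF-beta is known for holding back lymphocytes and for driving fibroblasts to make matrix.

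Total counts ranged from 29070605 to 36012997 per tumor. Xbp1, the targeted gene, had 77.2, 76, 73.7 and 56.6 CPM (library-scaled counts) in shXBP1 tumors 1 to 4, against 97.3, 96, 102.5 and 109.2 CPM in shNT tumors 1 to 4. On the first principal component, which held 52.1% of the variance, shXBP1 tumor 4 lay at 16.2, apart from shXBP1 tumors 1 to 3 (43.1 to 48.7) and from the shNT tumors (-52.0 to -28.1). Of 8 markers of colon epithelium, Cdx2 had 0 counts in every tumor, and Krt8 and Krt18 had at most 0.295 CPM and 0.129 CPM in any tumor. The labelled epithelial cell type is therefore not visible through its defining markers, and the summed level of this list, 7.65 to 11.2 CPM in shXBP1 tumors and 5.74 to 7.97 CPM in shNT tumors, came mostly from Cdh1. Markers of leukocytes, fibroblasts and endothelium were higher in shXBP1 tumors, and their values are given with the receptors below.

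Of the 9 members, 3 rose in shXBP1 tumors, 0 fell and 6 did not pass the test. The genes that rose were Tgfbr2, the type II receptor (1.43-fold), Tgfb3, a ligand (1.25-fold), and Tgfbr3, betaglycan (1.24-fold). The test was edgeR's quasi-likelihood test with Benjamini-Hochberg adjustment over all genes, with a threshold of 0.05 on the adjusted p. Inhbb, with an unadjusted p of 0.0195 and an adjusted p of 0.0607 from this test, was not called. In the same comparison 30.0% of all genes tested were called, 16.9% higher and 13.1% lower, so 3 of 9, or 33.3%, is close to the share among all genes. The median log2 fold change (shXBP1 minus shNT throughout) was 0.08 over the members and -0.005 over all genes tested. The median size of the change regardless of sign was 0.31 over the members and 0.24 over all genes. Both receptors that rose did not overlap between the groups in CPM, which held for 2 of 9 members and for 30.2% of all genes. In whole-tumor RNA, fewer cells of a type and less RNA per cell cannot be told apart.

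**Figure D1:**
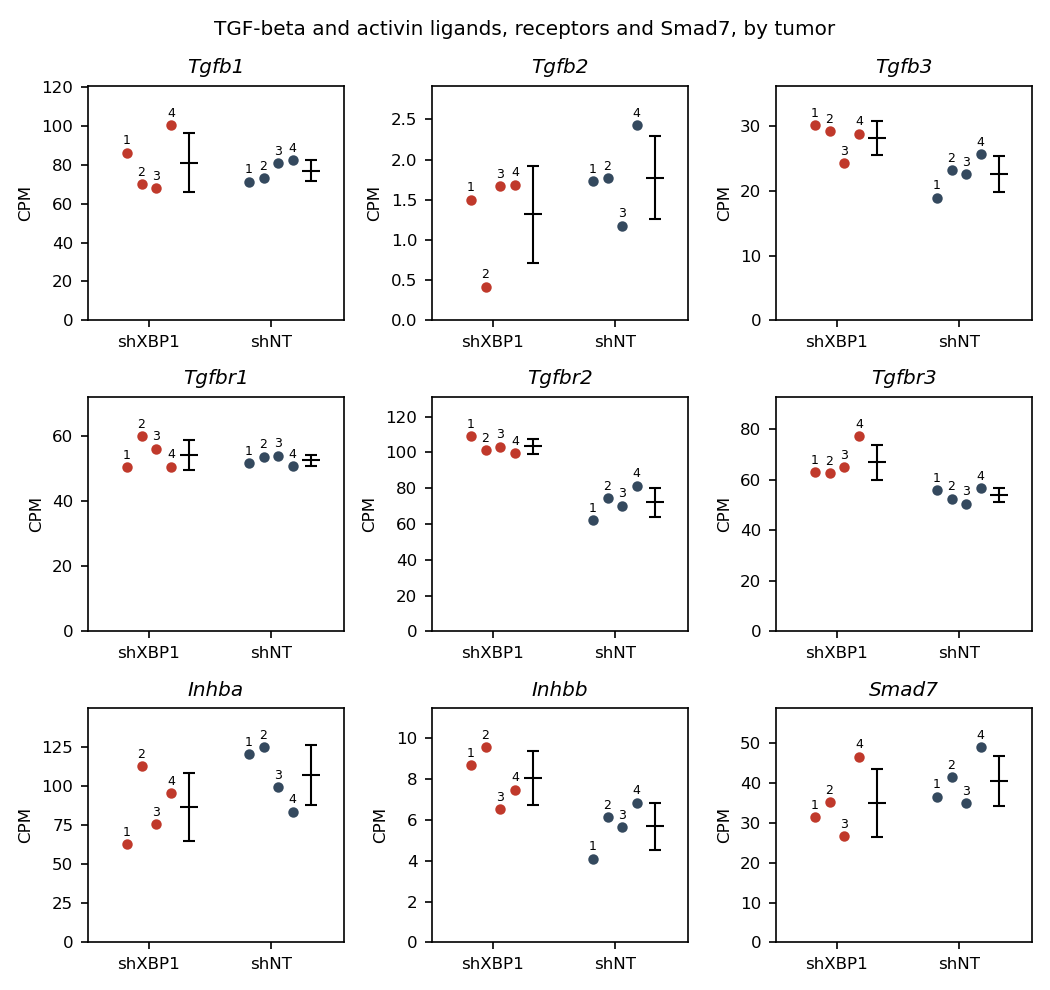
Level of each member in each tumor, in CPM with an axis from 0, shXBP1 tumors on the left (red) and shNT tumors on the right (dark blue). Points are tumors with their number, and the bar beside them is the mean with its SD (n = 4 each). Tgfbr2 and Tgfbr3 do not overlap between the groups, while the other 7 members do.

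The members differed widely in level. Per gene length, in the authors' FPKM (counts scaled to gene length and library size), Tgfb1 was the highest member in every tumor and Tgfb2 the lowest. In shXBP1 tumors the mean order was Tgfb1 at 33.4 FPKM, Inhba at 12.1, Tgfbr2 at 11.5, Tgfbr3 at 9.78, Tgfbr1 at 8.42, Tgfb3 at 7.34, Smad7 at 7.30, Inhbb at 1.67 and Tgfb2 at 0.227 FPKM. In shNT tumors it was Tgfb1 at 31.4 FPKM, Inhba at 15.1, Smad7 at 8.36, Tgfbr1 at 8.13, Tgfbr2 at 8.07, Tgfbr3 at 7.87, Tgfb3 at 5.88, Inhbb at 1.18 and Tgfb2 at 0.305 FPKM. In shXBP1 tumors each neighbouring pair from Inhba down to Smad7 overlapped in range. Beyond neighbours, Tgfbr2 lay wholly above Tgfbr1, Tgfb3 and Smad7, and Inhba and Tgfbr3 lay wholly above Tgfb3. In shNT tumors only the neighbours among Smad7, Tgfbr1, Tgfbr2 and Tgfbr3 overlapped. Tgfbr2 stood above Tgfbr1 in 4 of 4 shXBP1 tumors. In shNT tumors 2 of 4 had Tgfbr1 above Tgfbr2.

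**Figure D2:**
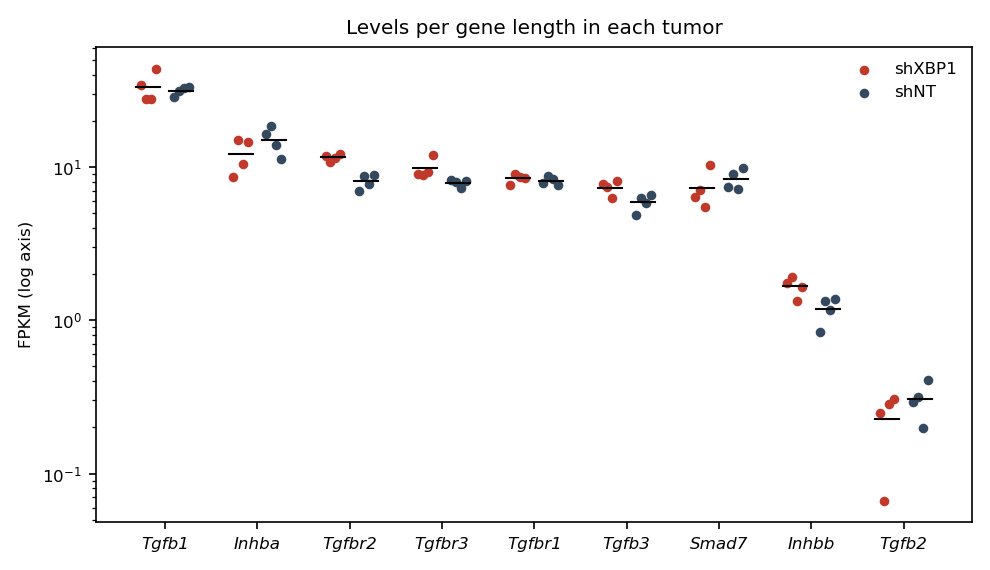
FPKM of each member in each tumor on a log axis, ordered by the mean over shXBP1 tumors; red points are shXBP1 and dark blue points shNT tumors, and lines are means. Tgfb1 lies between 27.6 and 43.8 FPKM and Tgfb2 at or below 0.410 FPKM in all tumors, with 6 members between 4.87 and 18.6 FPKM.

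Tgfb1 encodes the TGF-beta that most immune cells make and had, per gene length, the highest level of the ligand genes among the members. It had 86.1, 70.1, 67.8 and 100.3 CPM in shXBP1 tumors 1 to 4, against 71.2, 73.2, 80.6 and 82.4 CPM in shNT tumors 1 to 4. Among shXBP1 tumors 2 lay above and 2 below the whole shNT range. Its log2 fold change of 0.08 had an SE of 0.12 (95% interval -0.18 to 0.34, adjusted p = 0.661), and without shXBP1 tumor 4 it was -0.04 (adjusted p = 0.812). The data therefore leave room for a change of up to 1.26-fold upward or down to 0.882 of the shNT level.

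Tgfb2 encodes the isoform that depends most on betaglycan for binding. It was rare, with 13 to 63 counts per shXBP1 tumor and 34 to 78 counts per shNT tumor. Its levels were 1.5, 0.418, 1.67 and 1.69 CPM in shXBP1 tumors 1 to 4, against 1.73, 1.77, 1.18 and 2.43 CPM in shNT tumors 1 to 4. The groups overlapped and shXBP1 tumor 2 lay far below the rest. The log2 fold change of -0.43 had an SE of 0.40 (95% interval -1.28 to 0.43, adjusted p = 0.45), and without shXBP1 tumor 2 it was -0.13 (adjusted p = 0.793). This interval is wide enough to hold a change of either sign.

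The promoter sequences of these 2 ligand genes are shown because their transcripts stood at the top and bottom of the family. They run from 250 bases before to 50 bases after the start in RefSeq (GRCm38.p6). Windows of 6 of the 9 members were searched. Tgfb1 lies on the plus strand (chr7:25686752-25687051) and Tgfb2 on the minus strand (chr1:186705940-186706239). Capitals mark motifs searched on both strands: the GC box GGGCGG, the CCAAT box CCAAT, the TATA box TATAAA, the AP-1 site TGACTCA, the E-box CACGTG, the SMAD palindrome GTCTAGAC and the XBP1 element TGACGTGG. No capital stretch belongs to more than 1 of these motifs.
Tgfb1: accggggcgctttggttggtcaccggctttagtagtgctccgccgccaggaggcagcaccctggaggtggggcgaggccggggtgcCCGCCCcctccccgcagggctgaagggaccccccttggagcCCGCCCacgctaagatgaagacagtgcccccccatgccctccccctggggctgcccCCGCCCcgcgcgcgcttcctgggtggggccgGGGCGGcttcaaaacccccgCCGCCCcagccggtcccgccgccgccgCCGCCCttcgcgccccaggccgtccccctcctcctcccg
Tgfb2: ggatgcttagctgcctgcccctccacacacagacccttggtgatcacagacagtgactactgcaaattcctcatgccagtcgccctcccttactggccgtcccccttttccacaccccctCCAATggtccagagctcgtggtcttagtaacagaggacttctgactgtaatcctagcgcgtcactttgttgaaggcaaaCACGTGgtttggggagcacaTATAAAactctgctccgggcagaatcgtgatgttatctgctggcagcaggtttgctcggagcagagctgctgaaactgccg
The Tgfb1 window held 6 GC boxes and was 77.0% G and C, against a median of 52.7% over 32851 RefSeq promoter windows. The Tgfb2 window, 54.3% G and C, held 1 TATA box, 1 CCAAT box and 1 E-box. At least 1 GC box was present in 35.7% of all windows, a CCAAT box in 37.4%, a TATA box in 13.6% and an E-box in 7.15%. Matches of the AP-1 site (5.20% of all windows), the SMAD palindrome (0.213%) and the XBP1 element (0.676%) were found in 0 of the 6 members' windows at their annotated start. The promoters of Tgfb3, Tgfbr3 and Smad7 were not among those searched, so this says nothing of them. These matches describe letters only and were not tested for any link with the levels.

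Tgfb3 encodes the third TGF-beta isoform, which like TGF-beta 1 binds the type II receptor directly. It had 30.1, 29.2, 24.2 and 28.8 CPM in shXBP1 tumors 1 to 4, against 18.9, 23.1, 22.5 and 25.6 CPM in shNT tumors 1 to 4. Thus 3 of 4 shXBP1 tumors lay above the shNT range and tumor 3 lay within it. Its log2 fold change of 0.32 (SE 0.11) lay just inside the threshold with edgeR (adjusted p = 0.0476). The authors' deposited table gives 0.315 with an adjusted p of 0.0286, and DESeq2 run on the counts gave 0.32 with 0.0337. With edgeR, Tgfb3 kept its call in 2 of the 8 fits with 1 tumor left out, those without shNT tumor 4 and without shXBP1 tumor 3. In the other 6 the adjusted p was 0.0596 to 0.121. Its gene (chromosome 12, 86056745 to 86079041, minus strand, GENCODE M21 on GRCm38) shares 5149 bases with Ttll5 on the other strand. Ttll5 stood at 20.4 CPM in shXBP1 and 23.5 CPM in shNT tumors (log2 fold change -0.20, adjusted p = 0.233), and no source used here says whether counting used strand.

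Of the summed FPKM of the 3 TGF-beta genes, Tgfb1 made up 78.9% to 84.0% in shXBP1 tumors and 82.6% to 84.7% in shNT tumors. Tgfb3 made up 15.4% to 20.9% in shXBP1 and 14.5% to 16.6% in shNT tumors, and Tgfb2 made up 0.189% to 0.832% in shXBP1 and 0.513% to 1.02% in shNT tumors.

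The activin genes pointed in opposite directions, but neither passed the test. Inhba, whose product forms activin A, had 62.7, 112.5, 75.4 and 95.6 CPM in shXBP1 tumors 1 to 4, against 120.4, 124.9, 99.4 and 83.6 CPM in shNT tumors 1 to 4. Of the shXBP1 tumors 2 lay below the shNT range and 2 lay within it. Its log2 fold change was -0.31 with an SE of 0.19 ( 95% interval -0.73 to 0.11, adjusted p = 0.25). Inhba overlaps the antisense transcript Gm48444 over 6240 bases and the pseudogene B230303A05Rik over 11573 bases, for which no values were analysed here.

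Inhbb, whose product forms activin B, had 8.67, 9.55, 6.53 and 7.47 CPM in shXBP1 tumors 1 to 4, against 4.10, 6.12, 5.65 and 6.83 CPM in shNT tumors 1 to 4. Of the shXBP1 tumors 3 lay above the shNT range, and tumor 3 did not. The log2 fold change was 0.50 (SE 0.19, 95% interval 0.10 to 0.91), with an unadjusted p of 0.0195 and an adjusted p of 0.0607 from edgeR. The authors' deposited table gives 0.48 with an adjusted p of 0.0324, and DESeq2 run on the counts gave 0.50 with 0.0353. Without shNT tumor 4 the adjusted p from edgeR was 0.0464, and without shXBP1 tumor 4 it was 0.0492. Its place relative to the threshold thus depended on the test and on these tumors.

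Tgfbr2 showed the clearest difference among the members. The gene (ENSMUSG00000032440, chromosome 9, 116084293 to 116175360, minus strand) had 109.1, 101.2, 103.1 and 99.7 CPM in shXBP1 tumors 1 to 4, against 62.3, 74.3, 70.3 and 81.4 CPM in shNT tumors 1 to 4. Every shXBP1 tumor lay above every shNT tumor. The means were 103.3 ± 4.12 CPM in shXBP1 and 72.1 ± 7.95 CPM in shNT tumors (SD, n = 4 each), a log2 fold change of 0.52 (SE 0.09, 95% interval 0.33 to 0.71, adjusted p = 0.00104). The call held in all 15 alternative fits, with log2 fold changes of 0.46 to 0.58.

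Tgfbr1, its partner, had 50.6, 60.1, 56.2 and 50.7 CPM in shXBP1 tumors 1 to 4, against 51.7, 53.8, 54.1 and 50.8 CPM in shNT tumors 1 to 4. Among shXBP1 tumors 2 lay above and 2 below the whole shNT range. The estimated log2 fold change was 0.05 with an SE of 0.08 (95% interval -0.13 to 0.22, adjusted p = 0.686). Because Tgfbr2 passed the test and its partner did not, their promoter windows are shown, with motifs marked as above: Tgfbr2 on the minus strand (chr9:116175314-116175613) and Tgfbr1 on the plus strand (chr4:47352972-47353271).
Tgfbr2: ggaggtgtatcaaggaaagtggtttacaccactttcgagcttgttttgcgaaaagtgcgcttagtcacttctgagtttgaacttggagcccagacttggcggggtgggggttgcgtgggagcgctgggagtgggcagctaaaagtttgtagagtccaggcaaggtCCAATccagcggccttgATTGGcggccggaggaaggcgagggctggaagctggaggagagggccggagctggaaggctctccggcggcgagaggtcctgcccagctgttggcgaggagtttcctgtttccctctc
Tgfbr1: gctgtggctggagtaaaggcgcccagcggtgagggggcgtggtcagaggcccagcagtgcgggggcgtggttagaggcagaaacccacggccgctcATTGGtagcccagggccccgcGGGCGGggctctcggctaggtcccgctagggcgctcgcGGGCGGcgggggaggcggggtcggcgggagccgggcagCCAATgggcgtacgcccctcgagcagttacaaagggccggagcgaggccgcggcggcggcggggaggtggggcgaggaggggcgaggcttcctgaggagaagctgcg
Both windows shown held 2 CCAAT boxes. This Tgfbr1 window also held 2 GC boxes and was 74.7% G and C, while the Tgfbr2 window held 0 GC boxes and was 59.0% G and C. Another RefSeq window of Tgfbr1 (chr4:47385966-47386265), not shown, held 1 CCAAT box and 0 GC boxes and was 52% G and C. As above, these are descriptions of the letters in the windows.

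Tgfbr3 (chromosome 5, 107106570 to 107289629, minus strand) had 62.9, 62.5, 64.9 and 77.2 CPM in shXBP1 tumors 1 to 4, against 55.8, 52.4, 50.5 and 56.7 CPM in shNT tumors 1 to 4. The groups did not overlap, and shXBP1 tumor 4 was the highest. Its log2 fold change was 0.31 with an SE of 0.09 (95% interval 0.12 to 0.51, adjusted p = 0.0184). Without shXBP1 tumor 4 the change was 0.24 (adjusted p = 0.0295). Leaving out shNT tumor 2 (adjusted p = 0.0532) or shNT tumor 3 (adjusted p = 0.0602) ended the call. It overlaps 3 predicted transcripts on its own strand, Gm43422 over 3571, Gm42900 over 2167 and Gm43423 over 2094 bases, and the pseudogene Gm8145 over 745 bases on the other strand, for which no values were analysed here.

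Smad7 encodes the feedback inhibitor of the type I receptors. It had 31.5, 35.2, 26.7 and 46.6 CPM in shXBP1 tumors 1 to 4, against 36.6, 41.4, 35.0 and 49.0 CPM in shNT tumors 1 to 4. The groups overlapped, and tumor 4 was the highest in both. Its log2 fold change was -0.21 with an SE of 0.16 ( 95% interval -0.57 to 0.15, adjusted p = 0.364). Without shXBP1 tumor 4, the tumor that stood apart on the first principal component, it was -0.37 (SE 0.13, adjusted p = 0.0371). Of 15 alternative fits this was the 1 that called Smad7, and the other 14 did not.

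**Figure D3:**
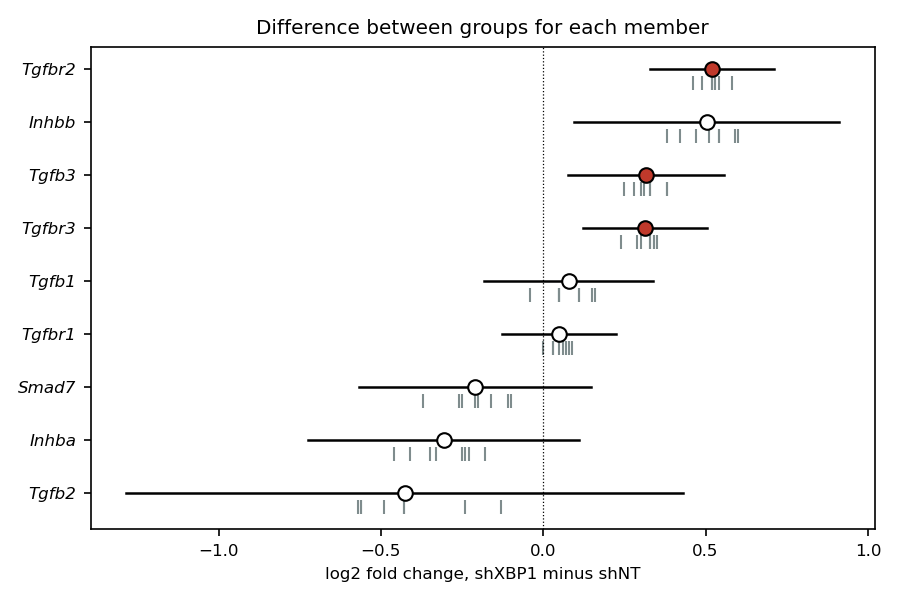
Log2 fold change of each member (circle) with its 95% interval (line), shXBP1 minus shNT; red circles passed the test and white ones did not. Grey ticks are the values with 1 tumor left out. Those of Tgfb1 fall on both sides of 0, and those of Tgfbr2 stay between 0.46 and 0.58.

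Markers of leukocytes, fibroblasts and endothelium, cells known to carry TGF-beta receptors, were higher in shXBP1 tumors. Ptprc, the pan-leukocyte gene, stood at 156.4, 193.3, 170.6 and 94.8 CPM in shXBP1 tumors 1 to 4, and at 42.6 to 66.5 CPM in shNT tumors (log2 fold change 1.45, adjusted p = 0.00128). Of 6 macrophage markers 5 rose, with a summed level of 747.8 to 1330.9 CPM in shXBP1 and 427.8 to 604.1 CPM in shNT tumors. All 5 T cell markers rose, with sums of 48.6 to 135.9 CPM in shXBP1 and 16.9 to 32.3 CPM in shNT tumors. Of 6 fibroblast markers 5 rose, with sums of 1130.5 to 1772.1 CPM in shXBP1 and 415.0 to 551.6 CPM in shNT tumors. Of 4 endothelial markers 3 rose, with sums of 74.7 to 85.6 CPM in shXBP1 and 33.1 to 41.2 CPM in shNT tumors. Among 4 neutrophil markers 3 rose (sums of 23.2 to 30.5 CPM in shXBP1 and 5.71 to 10.0 CPM in shNT tumors) and Ly6g was below the filter. Of 4 platelet markers 1 rose, Pf4, with sums of 61.9 to 116.2 CPM in shXBP1 and 38.5 to 54.2 CPM in shNT tumors, and of 3 pericyte markers 0 passed the test, with sums of 82.5 to 117.7 CPM in shXBP1 and 107.2 to 121.6 CPM in shNT tumors. Of 6 markers of muscle, skin and fat 1 passed, Krt14, which fell. The sums were 58.3 to 92.4 CPM in shXBP1 and 152.0 to 216.7 CPM in shNT tumors. They came mostly from Krt14, with means of 49.4 CPM in shXBP1 and 175.3 CPM in shNT tumors. Ckm, Acta1, Krt5 and Adipoq had higher means in shXBP1 tumors and Myh4 a lower one. Krt5 and Adipoq were below the filter, and Ckm, Acta1 and Myh4 did not pass. The part of these cells in the rise of Tgfbr2, Tgfbr3 and Tgfb3 was not tested.

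Whether related members changed unequally was asked through ratios within a tumor, which cancel library size. Of 6 ratios, which share members and so are not independent, Tgfbr1/Tgfbr2 was the one that did not overlap between groups. It was 0.648, 0.834, 0.758 and 0.692 in shXBP1 tumors 1 to 4, against 1.14, 0.993, 1.08 and 0.860 in shNT tumors 1 to 4 (ratio of FPKM). The mean log2 ratio was -0.46 ± 0.16 in shXBP1 and 0.02 ± 0.18 in shNT tumors (SD, n = 4 each). The difference of -0.47 had a two-sided exact permutation p of 0.0286, the smallest that 4 against 4 allows, and an adjusted p of 0.137 over the 6 ratios. Inhba/Inhbb ranged from 4.87 to 8.73 in shXBP1 and from 8.17 to 19.7 in shNT tumors, a log2 difference of -0.85 (exact permutation p = 0.0571, adjusted p = 0.137). Tgfb1/Tgfb3 ranged from 3.77 to 5.44 in shXBP1 and from 4.98 to 5.86 in shNT tumors, a difference of -0.26 (exact permutation p = 0.0857, adjusted p = 0.137). The log2 difference was -0.92 for Tgfb2/Tgfb3, -0.22 for Tgfbr3/Tgfbr2 (each exact permutation p = 0.114, adjusted p = 0.137) and 0.66 for Tgfb1/Tgfb2 (exact permutation p = 0.257). None of the 6 passed after adjustment, and 1 ratio alone at the smallest p could not have, so this says nothing of whether the ratios differ.

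**Figure D4:**
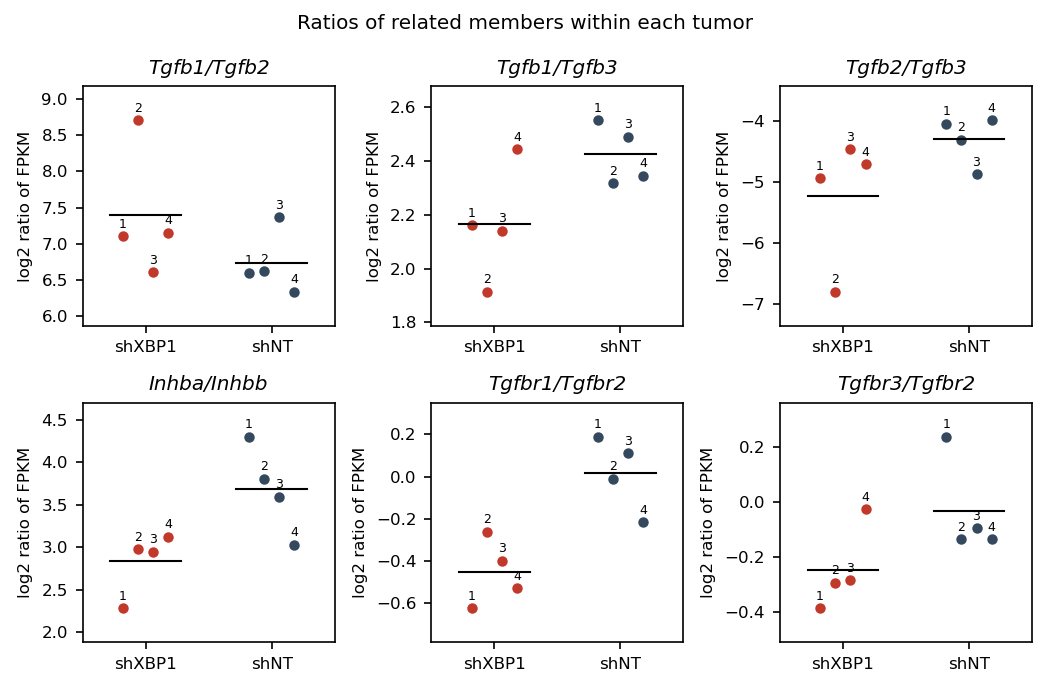
Log2 ratio of FPKM of related members in each tumor, shXBP1 on the left (red) and shNT on the right (dark blue), with tumor numbers and the mean as a line. The groups are separate for Tgfbr1/Tgfbr2 and overlap for the other 5 ratios.

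Other genes of the pathway were taken from 6 lists of 54 genes, of which 47 were tested, 14 rose, 5 fell and 28 did not pass. That is 40.4% called, against 30.0% of all genes tested, with a median log2 fold change of 0.05. Among 8 further ligand genes, 5 were below the filter and 0 of the 3 tested passed at the threshold. Inha, the inhibin alpha subunit that diverts beta subunits from activin, had 5.09 ± 0.421 CPM in shXBP1 and 6.03 ± 1.49 CPM in shNT tumors. Gdf11, an activin-like ligand, had 9.02 ± 1.66 CPM in shXBP1 and 11.3 ± 0.842 CPM in shNT tumors (unadjusted p = 0.0437, adjusted p = 0.11, SD, n = 4 each). Gdf3 was at 0.616 to 2.05 CPM in shXBP1 and 0 to 0.686 CPM in shNT tumors (unadjusted p = 0.0294, adjusted p = 0.0823). Gdf3 passed with DESeq2 (adjusted p = 0.0459) and without shXBP1 tumor 4 (adjusted p = 0.0499), and Gdf11 passed without shXBP1 tumor 1 (log2 fold change -0.47, adjusted p = 0.0277).

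Of 7 other receptor genes 6 were tested, 3 rose and 0 fell (16.9% and 13.1% of all genes tested). Acvrl1, which encodes the endothelial type I receptor ALK1, had 27.5, 25.6, 21.2 and 15.9 CPM in shXBP1 tumors 1 to 4, against 11.1, 8.90, 13.1 and 11.9 CPM in shNT tumors 1 to 4. It was 2-fold higher (SE 0.17 on the log2 scale, adjusted p = 0.00118). Eng, endoglin, the accessory receptor that works with ALK1 on endothelium, had 26.5 ± 2.05 CPM in shXBP1 and 14.7 ± 1.25 CPM in shNT tumors (SD, n = 4 each), 1.80-fold higher (adjusted p = 0.000121). Both were higher in the same group as the endothelial markers, of which Pecam1 was at 41.2 to 54.7 CPM in shXBP1 and 16.2 to 22.3 CPM in shNT tumors, and the part of those cells was not tested. Among shXBP1 tumors Acvrl1 was lowest in tumor 4 and highest in tumor 1. In these tumors, in that order, Pecam1 was at 52.1 and 47.2 CPM and Tek at 1.31 and 0.605 CPM. Cdh5 was at 19.4 and 22.5 CPM and Kdr at 8.17 and 11.9 CPM. Acvr1b, the main type I receptor for activin, was 1.30-fold higher (adjusted p = 0.0222), a call that ended when shNT 2, shNT 4, shXBP1 1 or shXBP1 3 was left out (adjusted p = 0.0505 to 0.0727). Acvr1, a type I receptor shared with bone morphogenetic proteins, was at 45.1 ± 2.45 CPM in shXBP1 and 44.2 ± 1.77 CPM in shNT tumors (adjusted p = 0.823).

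Of 11 genes for latency and activation of TGF-beta 10 were tested, 4 rose and 0 fell (16.9% and 13.1% of all genes tested). Nrros, which holds latent TGF-beta 1 on myeloid cells, had 41.3, 46.9, 44.8 and 32.2 CPM in shXBP1 tumors 1 to 4, against 20.3, 16, 21.5 and 22.7 CPM in shNT tumors 1 to 4. It was 2.06-fold higher (log2 fold change 1.04, SE 0.14, adjusted p = 0.000205). Among shXBP1 tumors, Ptprc and the summed macrophage markers were also lowest in tumor 4, though 2 of the 6 macrophage markers, Itgam and Mrc1, were lowest in tumor 1. Their part was not tested. Lrrc32, or GARP, which does the same on regulatory T cells and platelets, was at 4.40 ± 0.446 CPM in shXBP1 and 2.87 ± 0.618 CPM in shNT tumors (SD, n = 4 each), 1.53-fold higher (adjusted p = 0.0378). It ended when any tumor other than shNT 3 or shXBP1 2 was left out (adjusted p = 0.0562 to 0.096). Ltbp2, a matrix protein of the latent-binding family, was 1.51-fold higher (323.2 ± 24.3 CPM in shXBP1 and 213.9 ± 23.1 CPM in shNT tumors, adjusted p = 0.000621). Thbs1, thrombospondin 1, an activator of the latent complex, was 1.82-fold higher (adjusted p = 0.0202). This call ended without shNT tumor 1 (adjusted p = 0.0552) or shXBP1 tumor 4 (adjusted p = 0.0554). Ltbp1, which tethers latent TGF-beta to matrix, was at 167.6 ± 16.8 CPM in shXBP1 and 139.9 ± 18.1 CPM in shNT tumors (adjusted p = 0.0737). Ltbp1 passed without shNT tumor 1 (log2 fold change 0.36, adjusted p = 0.0159) and with the filter of 10 CPM in 4 libraries (adjusted p = 0.0429). Itgb8, an integrin subunit that frees TGF-beta, was at 3.12 to 3.43 CPM in shXBP1 and 2.43 to 2.99 CPM in shNT tumors (adjusted p = 0.186). Furin, the protease that cuts the propeptide, was at 155.9 ± 25.4 CPM in shXBP1 and 138.7 ± 10.9 CPM in shNT tumors (adjusted p = 0.276).

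All 3 antagonist genes passed the test, in both directions, as did 30.0% of all genes tested. This list is short and was not tested as a set. Fst, follistatin, which binds activin, was 1.46-fold higher (36 ± 4.11 CPM in shXBP1 and 24.6 ± 6.86 CPM in shNT tumors, SD, n = 4 each, adjusted p = 0.0341). This call held when shNT 1 or shXBP1 4 was left out and ended for each of the other 6 (adjusted p = 0.052 to 0.0918). Fstl3, a follistatin-like binder of activin, had 25.5, 24.4, 26.1 and 24.6 CPM in shXBP1 tumors 1 to 4, against 32.1, 33.2, 35.4 and 30.4 CPM in shNT tumors 1 to 4. It fell by 0.38 in log2 terms (SE 0.08, adjusted p = 0.00471). Bambi, a decoy receptor without a kinase, was 1.61-fold higher at a low level (3.33 ± 0.454 CPM in shXBP1 and 2.07 ± 0.211 CPM in shNT tumors, adjusted p = 0.0242), a call lost in 6 of the 8 fits with 1 tumor left out, all but those without shNT tumor 4 or shXBP1 tumor 4 (adjusted p = 0.0518 to 0.0643).

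Of 11 SMADs and their regulators 0 rose and 2 fell (16.9% and 13.1% of all genes tested). Pmepa1, a pathway-induced inhibitor that removes receptors and SMADs from signalling, had 93.4, 69.7, 66.4 and 87.5 CPM in shXBP1 tumors 1 to 4, against 103.8, 122.9, 101.3 and 112.1 CPM in shNT tumors 1 to 4. Pmepa1 fell by 0.47 (log2, SE 0.11, adjusted p = 0.00832). Smurf2, a ubiquitin ligase that SMAD7 brings to the receptors, had 54.3, 55.5, 55.6 and 63.5 CPM in shXBP1 tumors 1 to 4, against 72.8, 73.4, 80.5 and 77.2 CPM in shNT tumors 1 to 4. Smurf2 fell by 0.41 (log2, SE 0.08, adjusted p = 0.00242). The signal transducers did not pass: Smad2 was at 44.8 ± 1.25 CPM in shXBP1 and 48.2 ± 2.99 CPM in shNT tumors (adjusted p = 0.329), and Smad3 at 43.0 ± 8.09 CPM in shXBP1 and 40.9 ± 4.84 CPM in shNT tumors (adjusted p = 0.724). Smad4, their shared partner, was at 85.5 ± 8.34 CPM in shXBP1 and 99.1 ± 2.58 CPM in shNT tumors (adjusted p = 0.0666, SD, n = 4 each), and passed with DESeq2 (adjusted p = 0.0497). Without shXBP1 tumor 4, 10 of the pathway genes fell in place of 5. Calls also grew over all genes in that fit, with 2401 lower in place of 1958 and 2904 higher in place of 2517. The added pathway genes were Smad4 (log2 fold change -0.27, adjusted p = 0.0118), Smurf1 (-0.34, 0.0256), Zfyve9 (-0.26, 0.0376), the activin receptor gene Acvr2b (-0.88, 0.0327) and the collagen gene Col1a2 (-0.31, 0.03).

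Of 14 genes that TGF-beta is known to induce in fibroblasts or epithelial cells, 5 rose, 2 fell and 7 did not pass. Their median log2 fold change was 0.07, and over all genes tested 16.9% rose and 13.1% fell. The 5 target genes that rose included matrix and contractile genes. Col3a1, a fibrillar collagen, had 5338.7, 6026.9, 4942.2 and 4351.0 CPM in shXBP1 tumors 1 to 4, against 989.4, 1717.9, 1660.7 and 1950.3 CPM in shNT tumors 1 to 4, 3.27-fold higher (adjusted p = 0.000132). Acta2, smooth muscle actin, was 2.77-fold higher (124.1 ± 8.62 CPM in shXBP1 and 44.7 ± 4.36 CPM in shNT tumors, SD, n = 4 each, adjusted p = 2.06e-06). Fn1, fibronectin, was 1.79-fold higher, Cdkn1a, the cell cycle inhibitor p21, 1.53-fold, and Tgfbi, a secreted matrix protein, 1.49-fold.

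Other genes of the same list went the other way or did not pass. Tagln, transgelin, a contractile partner of Acta2, had 7.39, 6.08, 6.41 and 7.53 CPM in shXBP1 tumors 1 to 4, against 15.7, 11.9, 11.6 and 9.45 CPM in shNT tumors 1 to 4. Tagln fell by 0.83 (log2, SE 0.17, adjusted p = 0.00284). Postn, periostin, fell by 0.77 (67.7 ± 21.4 CPM in shXBP1 and 115.2 ± 20.1 CPM in shNT tumors, SD, n = 4 each, adjusted p = 0.0333), a call that ended for 5 of the 8 tumors left out, shNT 1, 3 and 4 and shXBP1 1 and 2 (adjusted p = 0.0543 to 0.0859). Ctgf, connective tissue growth factor, was at 14.9 to 19.0 CPM in shXBP1 and 7.58 to 21.7 CPM in shNT tumors (adjusted p = 0.642). Col1a1 was at 147.6 ± 50.7 CPM in shXBP1 and 142.4 ± 37.8 CPM in shNT tumors (adjusted p = 0.911), and Col1a2 at 398.9 ± 33.7 CPM in shXBP1 and 478.7 ± 53.7 CPM in shNT tumors (adjusted p = 0.0606). Col1a2 passed as lower with DESeq2 (adjusted p = 0.0347) and without shNT tumor 1 (adjusted p = 0.0281). The collagens thus did not move together: Col3a1 rose, and Col1a1 and Col1a2 did not pass. Fibroblast markers were higher in the same shXBP1 tumors, as given above, and their part in these changes was not tested.

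**Figure D5:**
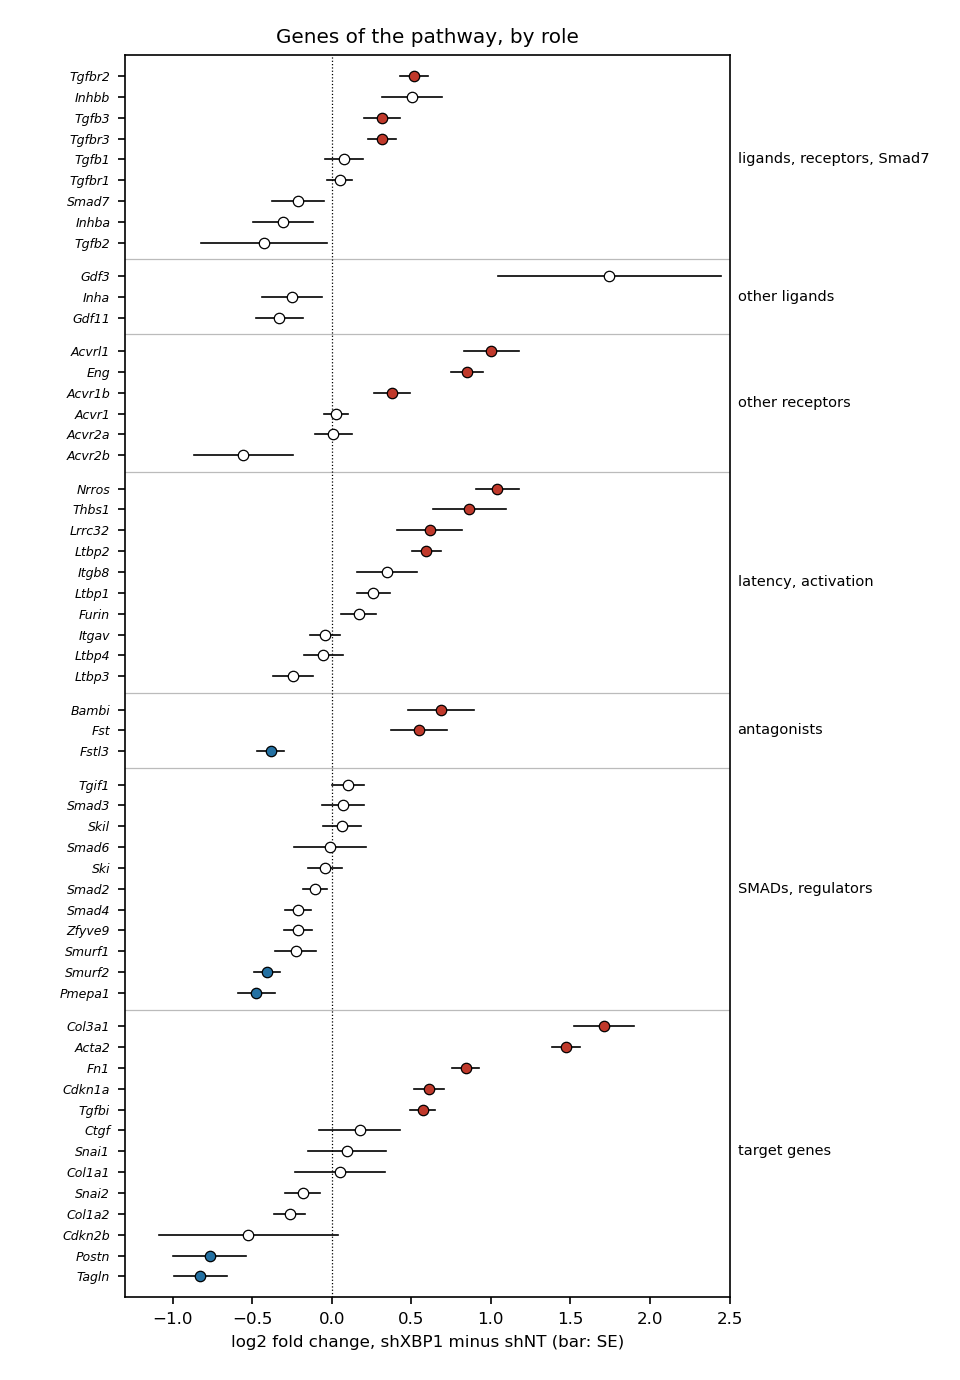
Log2 fold change of tested genes of the pathway (circle) with its SE (line), shXBP1 minus shNT, grouped by role. Red circles rose, blue circles fell and white circles did not pass the test; in the target gene group 5 are red and 2 are blue.

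Across the 8 tumors Tgfb3 and Inhbb followed each other most closely among the 36 pairs of members (Pearson r = 0.967 of log2 CPM, a description that includes the difference between groups). In shNT tumors both were lowest in tumor 1 and highest in tumor 4, and in shXBP1 tumors both were lowest in tumor 3. Among 9671 genes with at least 10 CPM on average, the genes most like Tgfbr2 were Calhm2 (r = 0.993) and Slc4a3 (r = 0.992), which rose by 0.52 (adjusted p = 0.00389) and 0.38 (adjusted p = 0.0092) on the log2 scale. Most like Tgfbr3 were the clock gene Per1 (r = 0.978) and the immediate early gene Egr1 (r = 0.971), which rose by 0.55 and 0.70 (adjusted p = 0.00461 and 0.00401). Tgfb1 was most like Sec14l1 (0.973) and Nfatc4 (0.959), Tgfb2 like Deaf1 (0.938) and Helz (0.934), and Tgfb3 like Gramd1a (0.982) and Nckipsd (0.965). Tgfbr1 was most like Nbn (0.968) and Emc2 (0.964), Inhba like Pdpk1 (0.979) and Mgme1 (0.974), Inhbb like Fyn (0.990) and Gramd1a (0.970), and Smad7 like Mau2 (0.965) and Ap3b1 (0.952). These values are the highest of many over 8 tumors and are given as descriptions.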

How the data were processed

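RNA-seq had been performed on total RNA of 8 subcutaneous MC38-OVA tumors, grouped by the genotype in their labels (4 shXBP1, 4 shNT). The deposited table holds raw counts and FPKM per gene and tumor, and an adjusted p and log2 fold change of the authors' DESeq2 comparison, per the file headers. Counts were deposited without normalization. The deposited FPKM, per the file headers, account for gene length and depth, and were used here for levels between genes and for ratios. The submitters' processing notes name GRCm38 as the build. No source used here names the aligner, counter, strand setting or annotation. Gene positions come from GENCODE M21, where all 9 identifiers were found.

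Genes were filtered with filterByExpr of edgeR (version 4.0.16, R 4.3.3), which left 14907, and scaled by TMM factors. Groups were compared with edgeR's quasi-likelihood test (robust, no covariate), p-values were adjusted by Benjamini-Hochberg across the genes tested, and the threshold was 0.05. CPM are scaled by TMM, and 95% intervals use the SE and the fit's degrees of freedom. Ratios were compared by two-sided exact permutation. Alternatives were DESeq2 (version 1.42.0), limma voom (version 3.58.1), other size factors, filters, dispersions, a replicate block and each tumor left out. Same-numbered tumors did not deviate together (correlations -0.141 to -0.0247), so the numbers were not taken as pairs. Chi-square tests of counts found every pair within a group to differ by more than counting error, with reads taken as independent (at least 16.2 per degree of freedom), so none was the same file deposited again. This does not show that the tumors were separate. The procedure was tested on simulated counts. The members and lists were chosen with earlier results of these data known. Named outside the members were called genes of the 6 pathway lists, others as values, and for each member the 2 genes with the highest correlation, leaving out predicted genes. The values of 1 target gene are not reported here.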

Additional observations from a re-analysis of the deposited data

Results flagged for a closer look

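In groups of 4 tumors, 1 tumor lay far from the other 3 by Dixon's criterion in 8 of the 100 groups of values looked at; chance gives about 1 in 20. In shXBP1 tumors, Tgfb2 was at 0.418 CPM in tumor 2 and at 1.5 to 1.69 CPM in the others, and with it the Tgfb1/Tgfb2 ratio was 418.1 in tumor 2 and 97.2 to 142.3 in the others. Tgfbr3 was at 77.2 CPM in shXBP1 tumor 4 and at 62.5 to 64.9 CPM in the others. Smurf2 was at 63.5 CPM in shXBP1 tumor 4 and at 54.3 to 55.6 CPM in the others. In shNT tumors, the Tgfbr3/Tgfbr2 ratio was 1.18 in tumor 1 and 0.911 to 0.937 in the others. Ltbp1 was at 166.9 CPM in shNT tumor 1 and at 128.3 to 133.4 CPM in the others. Postn was at 85.4 CPM in shNT tumor 2 and at 122.5 to 129.3 CPM in the others. Itgb8 was at 2.99 CPM in shNT tumor 4 and at 2.43 to 2.52 CPM in the others.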

How the results depend on the processing

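Over 15 alternative fits Tgfbr2 was called in 15, Tgfbr3 in 13, Tgfb3 in 5, Smad7 in 1, and Tgfb1, Tgfbr1 and Inhba in 0. Of the 14 fits that tested them, Inhbb was called in 3 and Tgfb2 in 0. At a threshold of 0.01, 1 member, 9 pathway genes and 1644 of all genes were higher, and 879 of all genes were lower. With 1 tumor left out, 1 to 4 members were higher (1 without shNT tumor 2 or 3) and 0 to 1 lower (Smad7 without shXBP1 tumor 4), 4 to 10 pathway genes were lower, and 1303 (without shNT tumor 3) to 2401 (without shXBP1 tumor 4) of all genes were lower. Log2 fold changes that changed sign with 1 tumor left out ranged from -0.04 to 0.16 for Tgfb1, from -0.06 to 0.14 for Smad3, from -0.04 to 0.43 for Ctgf and from -0.17 to 0.22 for Col1a1. The tumor numbers were not shown to pair the samples. With the replicate block, 2 members were higher and 1304 of all genes were lower, and edgeR's adjusted p was 0.0884 for Tgfb3, 0.0886 for Lrrc32, 0.061 for Thbs1, 0.0765 for Bambi and 0.0629 for Postn. Without a filter it was 0.0839 for Postn. Tgfb3 also missed the threshold with voom (0.052), without a filter (0.05) and without robust estimation (0.0504). No ratio passed after adjustment under any alternative. With 1 tumor left out this carries no information, as none could reach the threshold even before adjustment. The ratios of CPM and those with a pseudocount of 0.1 FPKM used all 8 tumors. There 1 ratio alone at the smallest p could not have passed either. The causes were not tested. Depth limits Tgfb2 most, with 13 counts in 1 tumor.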
